A study of Mus musculus with 3 samples.

Results

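The chaperones of the endoplasmic reticulum (ER) and the unfolded protein response (UPR) were followed through 10 genes in TBLR1-RARα (TR) leukemia and control marrow. They were picked by symbol for their known roles, 6 as chaperones or folding enzymes of the ER and 4 as signaling genes of the response, out of 16742 genes listed in any library. The choice was made with earlier results of these data known. All 10 were listed in all 3 libraries, and no filter on low values was applied. Control cells were Lin- bone marrow, the fraction that remains once cells with mature lineage markers are depleted, from wild-type C57BL/6 mice. TR1 and TR9 were GFP+ bone marrow cells from C57BL/6 mice with genotype TBLR1-RARα, where GFP marks cells that carry the retroviral fusion gene. The mice were 6 to 8 weeks old by the labels, and each library pooled 3 of them. By the study's methods the TR mice were the third generation of a serial transplantation, and TR1 and TR9 each descend from 1 primary leukemic mouse. Control and TR cells were therefore isolated in different ways, and each leukemia stands for 1 primary event.

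The UPR adjusts the folding capacity of the ER to its load. Sensors in the ER membrane detect unfolded protein in the ER lumen. IRE1α, encoded by Ern1, cuts a short intron out of Xbp1 mRNA in the cytoplasm, which yields the active transcription factor XBP1s. PERK slows translation and thereby favors synthesis of ATF4, which drives amino acid supply genes and, under lasting stress, Ddit3 (CHOP). ATF6 is cleaved in the Golgi and induces ER chaperones. Myeloid progenitors and promyelocytes make large amounts of granule protein that passes through the ER.

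Values of the libraries are given in the order control, TR1 and TR9 where no other is stated. The totals of expected counts were 5488778, 5571409 and 5129662. There was 1 library per condition, so no difference below has a replicate check, and the read tests compare these libraries and not the conditions. TR1 and TR9 were both set against the same control library. Intervals in parentheses after a log2 ratio of FPKM are 95% exact intervals for counting error. A gene rose or fell where its false discovery rate was at most 0.001 and its absolute log2 ratio at least 1. FPKM is scaled by gene length and by the library total. TMM scaling, which sets the bulk of the genes level, moved the zero point by −0.25 in TR1 and −0.11 in TR9 against control and by 0.13 for TR9 against TR1 on the log2 scale. The bulk libraries cannot tell fewer cells of a type from less RNA per cell. The control library held RNA of several lineages. The summed level of 6 erythroid markers was 2121, 4.49 and 7.75 CPM (expected counts scaled to the library total), and that of 4 neutrophil progenitor markers was 7540, 31483 and 27382. The sum of 5 stem and progenitor markers was 703, 311 and 364 CPM, and 3 of the 5 fell in each leukemia while 1 rose in TR1. Of these, Cd34 had 1039, 83 and 57 expected counts, while Kit had 2115, 853 and 1684 and was under the threshold in TR9.

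Of the 10 genes, Xbp1 rose in TR1, and Xbp1, Ern1 and Dnajb9 rose in TR9. None of the 10 fell in either leukemia. In TR1 this was 1 of 10 higher beside 8.09% of all 16282 genes tested, and 0 of 10 lower beside 13% of them. In TR9 it was 3 of 10 higher beside 9.37% of 16303 genes, and 0 of 10 lower beside 10.8%. The median log2 ratio of the 10 genes was 0.32 in TR1 and 0.28 in TR9, and over all genes it was −0.29 and −0.12. With TMM scaling, Sdf2l1 and Atf4 also passed the threshold in TR1, which made 3 of 10 higher beside 10.4% of all genes, and 3 of 10 were higher in TR9 beside 10.5%. With the exact test of edgeR at an assumed biological variation of 0.2, Xbp1 in TR9 was the only call left among the 10 genes. Hspa5, Hsp90b1 and Calr stayed within a log2 ratio of 1 of control in both leukemias, with or without TMM scaling. The nearest to 1 was Hspa5 in TR1 with TMM scaling, at 0.97 with an interval of 0.91 to 1.02.

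**Figure D1:**
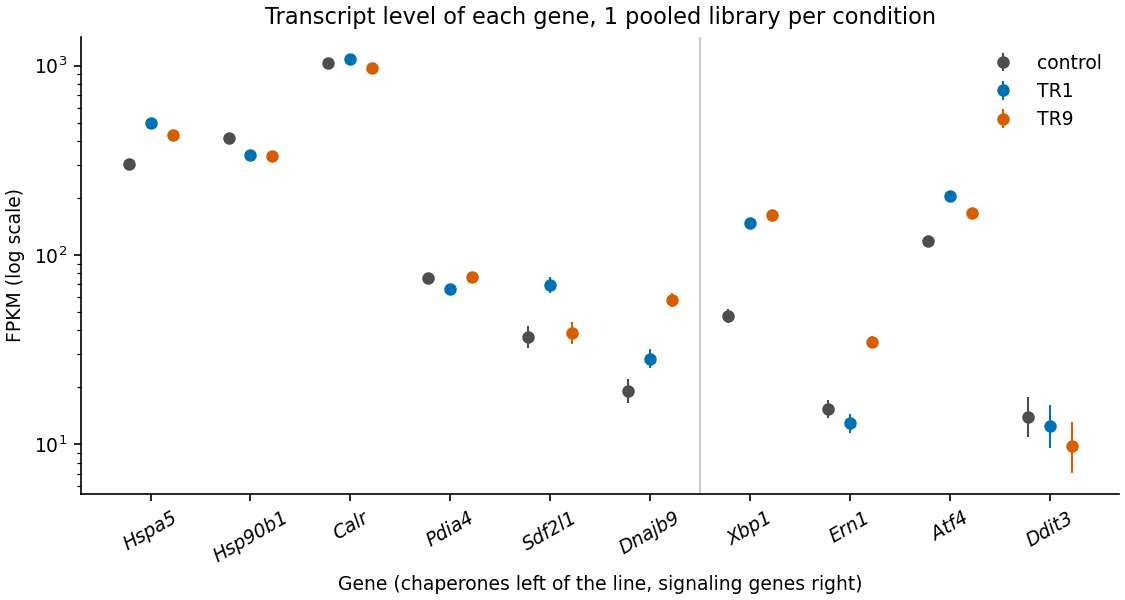
FPKM of the 10 genes (y axis, log scale) in the control, TR1 and TR9 libraries, with chaperones left and signaling genes right of the line. Each point is 1 pooled library and bars are 95% exact Poisson intervals, often smaller than the point. Calr was the highest of the 10 in every library, and Xbp1 stood at 148 and 163 FPKM in the leukemias against 47.6 in control.

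Levels between genes were compared in FPKM, which is scaled for length. In control the order was Calr, Hsp90b1, Hspa5, Atf4, Pdia4, Xbp1, Sdf2l1, Dnajb9, Ern1 and Ddit3. The counting intervals of neighbors in this order overlapped for Dnajb9 with Ern1 and for Ern1 with Ddit3, and were apart elsewhere. In TR1 they overlapped for Sdf2l1 with Pdia4 and for Ern1 with Ddit3, and in TR9 for Atf4 with Xbp1 and for Sdf2l1 with Ern1. In both leukemias Hspa5 stood above Hsp90b1, whereas in control Hsp90b1 stood above Hspa5. By FPKM Xbp1 was ranked 1801, 406 and 358 among the genes of its library. The 6 chaperones together held 0.419%, 0.462% and 0.425% of the counts, and Hspa5, Hsp90b1 and Calr made up 91.7% to 93.5% of that sum.

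Hspa5 encodes BiP, the HSP70 chaperone of the ER lumen that also binds the stress sensors. It had 4226, 7080 and 5601 expected counts, or 303, 498 and 428 FPKM. Both leukemias were above control, with log2 ratios of 0.72 (0.66 to 0.77) in TR1 and 0.50 (0.44 to 0.56) in TR9, both under the threshold. With TMM scaling these were 0.97 (0.91 to 1.02) and 0.61 (0.55 to 0.67). Hsp90b1, the HSP90 chaperone GRP94, had 6318, 5234 and 4743 expected counts, or 416, 338 and 334 FPKM. Its log2 ratios were −0.30 (−0.35 to −0.24) in TR1 and −0.32 (−0.37 to −0.26) in TR9. With TMM scaling the value in TR1 was −0.05 (−0.10 to 0.01). Calr, calreticulin, a lectin chaperone of glycoproteins that include myeloperoxidase, had 10961, 11727 and 9641 expected counts, or 1030, 1083 and 968 FPKM. Its log2 ratios were 0.07 (0.03 to 0.11) and −0.09 (−0.13 to −0.05), and the sign in TR9 turned with TMM scaling, to 0.02. The most abundant of the 10 genes thus differed from control by a log2 ratio of less than 0.1 in either leukemia, and by 0.32 in TR1 with TMM scaling.

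The promoters of these 3 chaperone genes were the only ones among the 10 that held the ER stress response element (ERSE), the letters CCAAT and CCACG with 9 bases between them, on either strand. Windows of 250 bases before to 50 bases after the start from RefSeq were searched, and all 10 genes matched the table. Only exact matches were counted. The motif was found in 37 of 27025 genes with such a window (0.137%). The element is already known from ER chaperone promoters, so its presence in these 3 is not a test. Hsp90b1 held it on both strands, Hspa5 on the strand of the gene and Calr on the other strand. The 250 bases before each start are shown because they carry the element through which ATF6 is known to act, with its CCAAT and CCACG parts (or their complements) in capitals. Their positions in GRCm38.p6 are chr2:34771840-34772089 on the plus strand for Hspa5, chr10:86705445-86705694 on the minus strand for Hsp90b1 and chr8:84846932-84847181 on the minus strand for Calr. Sequences run 5′ to 3′ along the gene.
Hspa5: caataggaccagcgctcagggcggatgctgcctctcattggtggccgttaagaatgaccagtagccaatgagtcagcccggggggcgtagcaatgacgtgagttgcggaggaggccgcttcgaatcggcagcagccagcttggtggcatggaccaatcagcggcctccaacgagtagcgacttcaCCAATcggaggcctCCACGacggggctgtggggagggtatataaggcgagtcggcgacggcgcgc
Hsp90b1: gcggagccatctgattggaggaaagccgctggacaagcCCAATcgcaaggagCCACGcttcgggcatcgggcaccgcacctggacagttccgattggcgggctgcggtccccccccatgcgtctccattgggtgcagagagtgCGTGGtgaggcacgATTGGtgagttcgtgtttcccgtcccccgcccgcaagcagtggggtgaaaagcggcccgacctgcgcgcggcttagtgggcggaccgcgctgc
Calr: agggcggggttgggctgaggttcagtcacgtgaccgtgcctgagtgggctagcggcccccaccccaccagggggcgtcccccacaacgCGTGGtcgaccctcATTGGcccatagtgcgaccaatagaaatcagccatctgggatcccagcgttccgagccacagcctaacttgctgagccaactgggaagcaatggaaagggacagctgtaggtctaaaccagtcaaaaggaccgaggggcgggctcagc

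Counted from the start, the element spanned positions −65 to −47 in Hspa5, −162 to −144 in Calr, and −212 to −194 and −107 to −89 in Hsp90b1. The shorter element ERSE-II (ATTGG and CCACG with 1 base between), the UPRE core tgacgtgg and the C/EBP-ATF composite tgatgnaat were found in none of the 10 windows, and in 0.0444%, 0.714% and 1.08% of all genes. CCACG by itself was found in 8 of the 10 windows and in 35.5% of all genes. Variants of these letters, such as the tgacgtga in the Hspa5 sequence above, were not counted. These matches describe the letters of the windows only. The 3 genes that carry the full element had log2 ratios against control between −0.32 and 0.72, as given above, and up to 0.97 with TMM scaling.

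Pdia4, the disulfide isomerase ERp72, had 1080, 966 and 1026 expected counts, or 75.2, 66.1 and 76.4 FPKM. Its log2 ratio was −0.19 (−0.31 to −0.06) in TR1, where TMM scaling turned the sign to 0.06, and 0.02 (−0.10 to 0.15) in TR9. Sdf2l1, a partner of BiP and of its co-chaperone ERdj3, was read from fewer counts. It had 223, 426 and 219 expected counts, or 36.9, 69.3 and 38.8 FPKM. TR1 alone was high, with a log2 ratio of 0.91 (0.67 to 1.15), or 1.16 with TMM scaling, which passed the threshold. In TR9 it was 0.07 (−0.21 to 0.35), and TR9 against TR1 gave −0.84 (−1.08 to −0.60), under the threshold.

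Dnajb9 encodes ERdj4, a co-chaperone of BiP that is known as a target of XBP1s and as a brake on IRE1α. It had 196, 295 and 553 expected counts, or 19.2, 28.4 and 57.9 FPKM. The level was lowest in control, intermediate in TR1 and highest in TR9. It rose in TR9 with a log2 ratio of 1.59 (1.35 to 1.83), and in TR1 the value was 0.56 (0.30 to 0.83), under the threshold. Compared directly, TR9 was higher than TR1 by 1.03 (0.82 to 1.24), and with TMM scaling by 0.90, under the threshold. Of the 10 genes, 2 rose in TR9 against TR1, beside 4.34% of 15706 genes, and 0 fell, beside 2.31%. They were Dnajb9 and Ern1, and with TMM scaling Ern1 alone, beside 3.51% of all genes.

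**Figure D2:**
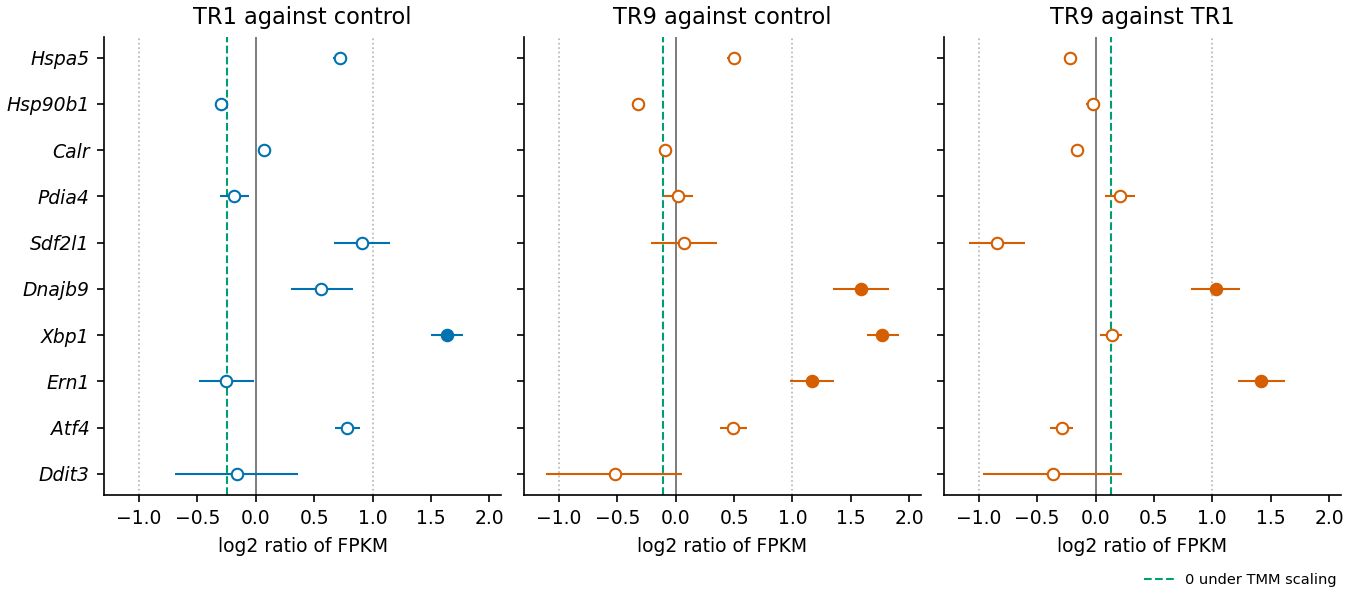
Log2 ratio of FPKM of the 10 genes (x axis) for TR1 against control, TR9 against control and TR9 against TR1. Filled points passed the false discovery rate and fold thresholds, bars are 95% exact intervals for counting error, dotted lines mark ratios of −1 and 1, and the green line is the zero point under TMM scaling. Xbp1 was filled in both comparisons with control, at 1.64 and 1.77, while Ern1 and Dnajb9 were filled in both comparisons of TR9.

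Ern1 encodes the sensor IRE1α. Its expected counts were 339, 289 and 712, and its FPKM values 15.4, 12.9 and 34.6. TR9 stood apart from the other 2 libraries, which were close to each other. The log2 ratio was 1.17 (0.98 to 1.36) in TR9 and −0.26 (−0.49 to −0.02) in TR1, where TMM scaling brought it to −0.01. Between TR9 and TR1 it was 1.42 (1.22 to 1.62), the largest difference between the leukemias among the 10 genes, and 1.29 with TMM scaling.

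Xbp1 encodes the transcription factor that IRE1α activates. Its expected counts were 589, 1863 and 1875, and its FPKM values 47.6, 148 and 163. Both leukemias were high and control was low. The log2 ratios were 1.64 (1.50 to 1.77) in TR1 and 1.77 (1.64 to 1.91) in TR9, or 3.11-fold and 3.42-fold. TR9 and TR1 differed by 0.14 (0.04 to 0.23), which was 0.00 with TMM scaling. Xbp1 is also abundant in plasma cells, so the other plasma cell markers were read beside it. Of 7 such markers, which include Xbp1, Mzb1, Irf4 and Tnfrsf17 were at 0 in both leukemias, and a count of 0 allows up to 3 counts. Jchain had 850, 3 and 8 expected counts and Sdc1 had 28, 6 and 21, and the summed level of the 6 markers other than Xbp1 was 166, 1.79 and 6.24 CPM. Of the 4 neutrophil progenitor markers whose sums are given above, 4 rose in TR1 and 3 in TR9, and their part in the level of Xbp1 was not tested.

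The sequence that IRE1α removes from Xbp1 mRNA is shown because the files carry a transcript length that may reflect its removal. A pair of hairpin loop motifs (CNGCNGN) with cut sites 26 bases apart was found in the GENCODE transcript Xbp1-201. Removal of the 26 bases changes the reading frame and extends it from 267 to 371 codons. They lie in exon 4, in the coding sequence, at chr11:5524279-5524304 of GRCm38 on the plus strand, and are in capitals with 20 bases of exon on either side.
Xbp1: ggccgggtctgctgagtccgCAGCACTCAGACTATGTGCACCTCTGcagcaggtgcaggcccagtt

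For a gene with several transcripts RSEM writes a length that is the mean over its transcripts weighted by their estimated abundance. In these files the length of all 10035 genes with 1 transcript listed in every library was identical between libraries, and it differed for 83.6% of 3177 genes with more. Xbp1 was quantified from 2 RefSeq transcripts, and whether these differ only by the 26 bases was not checked. The length of Xbp1 was 2252.37, 2248.97 and 2241.21 bases. If the transcripts differ only by the 26 bases, the share of Xbp1 transcripts without the intron was higher than in control by 13.1 percentage points in TR1 and by 42.9 points in TR9, and higher in TR9 than in TR1 by 29.8 points. The lengths of the RefSeq transcripts used were not analysed here, so the share itself has only bounds, from 0% to 57.1% in control, 13.1% to 70.2% in TR1 and 42.9% to 100% in TR9. The differences do not depend on where in those bounds the shares lie. The number of reads that span the site is not given in the files, so these shares have no interval, and control has the fewest Xbp1 reads. TR9 thus had the highest level of Ern1 and of Dnajb9 and the shortest Xbp1, at nearly the same Xbp1 level as TR1. The 10 genes did not move together. For TR9 against TR1, 4 of them had a ratio above 0, beside 60.2% of all genes. Their median was −0.09, with Hspa5 at −0.22 and Sdf2l1 at −0.84. Targets of XBP1s were not read as a set, and whether they differ between TR9 and TR1 was not tested.

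**Figure D3:**
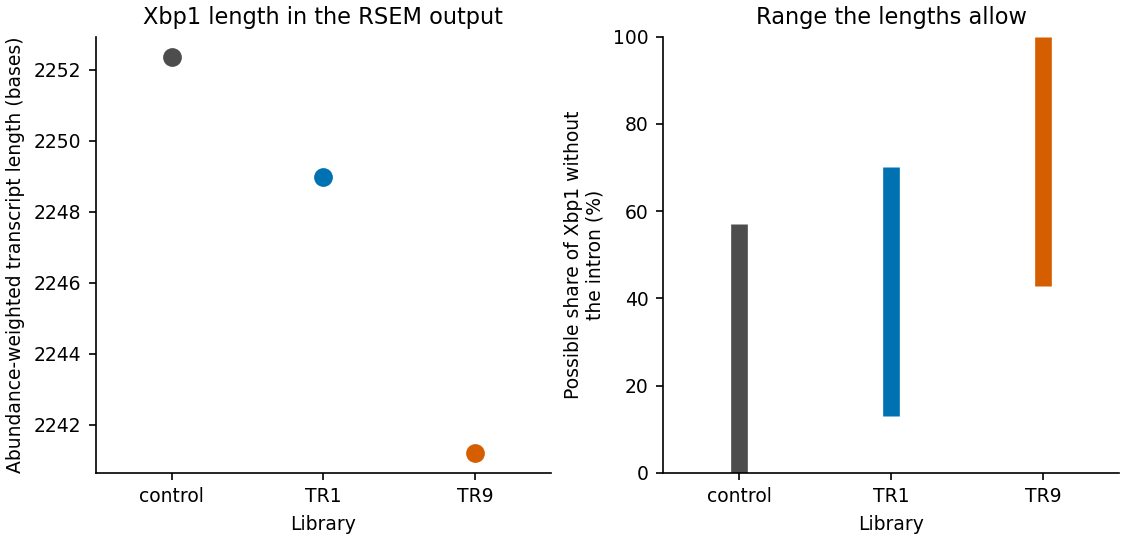
Left, the abundance-weighted length of Xbp1 in bases (y axis, which does not start at 0) in the control, TR1 and TR9 libraries. Right, bars from the lowest to the highest share of Xbp1 transcripts without the 26-base intron (y axis, percent) that these lengths allow, which shift upward together from control to TR9 and are not error bars. The bars hold only if the Xbp1 transcripts differ by those 26 bases alone, which was not checked.

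Of the PERK branch, Atf4 had 1132, 1985 and 1491 expected counts, or 118, 204 and 167 FPKM. Both leukemias were above control, with log2 ratios of 0.78 (0.68 to 0.89) and 0.49 (0.38 to 0.61), and with TMM scaling TR1 reached 1.03 and passed the threshold. ATF4 is regulated largely at translation, which RNA does not show. Ddit3, the pro-apoptotic factor CHOP, had the lowest FPKM of the 10 genes in every library. Its counting interval overlapped that of Ern1 in control and TR1. It had 66, 60 and 43 expected counts and 14.0, 12.5 and 9.77 FPKM. Its log2 ratios were −0.16 (−0.69 to 0.36) in TR1 and −0.52 (−1.11 to 0.05) in TR9. Both intervals include 0, so a difference was not detectable at this depth, and with TMM scaling the sign in TR1 turned, to 0.09. Ddit3 was thus not among the genes that rose with Xbp1.

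Other genes of the pathway were read as lists by function, chosen with earlier results known, and counted without the 10 genes above. The counts of each list stand beside 8.09% higher and 13% lower of all genes in TR1. In TR9 the shares of all genes were 9.37% higher and 10.8% lower. The medians over all genes were −0.29 in TR1 and −0.12 in TR9. Among 16 sensors and regulators, 1 rose (Tmbim6) and 1 fell (Creb3l1) in each leukemia, with medians of 0.06 and 0.28. Tmbim6, an ER membrane protein that restrains IRE1α, had 1911, 4279 and 8113 expected counts. It rose by log2 ratios of 1.14 (1.06 to 1.22) and 2.18 (2.11 to 2.25), and with edgeR it was not called in TR1. Of the other sensors, Eif2ak3 (PERK) was at 0.58 and 0.76 and Atf6 at 0.36 and 0.58 in TR1 and TR9, under the threshold. Creb3l1, a transcription factor of collagen-secreting cells, fell from 35 counts to 4 and 2. Creb3l1 moved with the stroma markers Lum, Col1a1, Col1a2 and Cxcl12, all of which fell in both leukemias, with sums of 2447, 17.6 and 37.4 CPM. Serpinh1, the collagen chaperone HSP47, moved with the same markers, from 85 counts to 10 and 9. The part of stroma cells in these falls was not tested.

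Of 18 further ER chaperones and co-chaperones, 0 rose in either leukemia, Serpinh1 fell in TR1, and Serpinh1 and Dnajc10 fell in TR9. With edgeR Dnajc10 was not called in TR9. The median was 0.09 in TR1 and 0.16 in TR9. Of 24 disulfide and proline isomerases, 4 rose and 2 fell in TR1 and 5 rose and 4 fell in TR9, with medians of 0.34 and 0.43. With TMM scaling 6 rose in TR1 and 2 fell in TR9, and with edgeR 1 fell in TR9. Ero1a, the oxidase that recharges disulfide isomerases, had 730, 3198 and 2285 expected counts and rose by log2 ratios of 2.11 and 1.74. Fkbp11, a proline isomerase of secretory cells, had 18, 90 and 108 counts and rose by 2.30 (1.55 to 3.11) and 2.68 (1.95 to 3.49). Txndc5 and Prdx4, a disulfide isomerase and a peroxidase of the ER, fell. Txndc5 had 821, 79 and 117 counts and Prdx4 had 120, 21 and 28. P4hb, the principal disulfide isomerase, was under the threshold at 0.87 and 0.59.

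Among 27 genes of ER-associated degradation, 2 rose and 3 fell in TR1, and 3 rose and 0 fell in TR9. With edgeR 0 rose and 0 fell in either leukemia, so the rises of Derl3 and Edem1 given below were lost. The median log2 ratio was −0.09 in TR1, which was 0.16 with TMM scaling, and 0.20 in TR9. Derl3, of the retrotranslocation machinery, had 5, 25 and 28 expected counts and rose in both, by 2.30 (0.89 to 4.04) and 2.58 (1.19 to 4.31). Edem1, a lectin that directs glycoproteins to degradation, with 846, 1138 and 2054 counts, was at 0.40 in TR1, under the threshold, and rose in TR9 by 1.38. For TR9 against TR1, 24 of these 27 genes had a ratio above 0 (88.9%), beside 60.2% of all genes, and none passed the threshold. The list's median there was 0.29, or 0.16 with TMM scaling, beside 0.13 and 0.00 over all genes. For translocation, signal cleavage and glycosylation, 2 of 32 genes rose in TR1 (Ssr4 and Sec61b) and 0 in TR9, and 0 fell in either. With TMM scaling 4 rose in TR1 and 1 in TR9, and with edgeR 0 in each. Among 23 KDEL receptors and ER-Golgi carriers, Mcfd2 rose in TR1, 0 rose in TR9 and 0 fell in either. With TMM scaling 1 rose in each leukemia, and with edgeR 0 in either. For TR9 against TR1, 19 of these 23 genes also had a ratio above 0 (82.6%). The median of that list was 0.19, or 0.06 with TMM scaling.

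**Figure D4:**
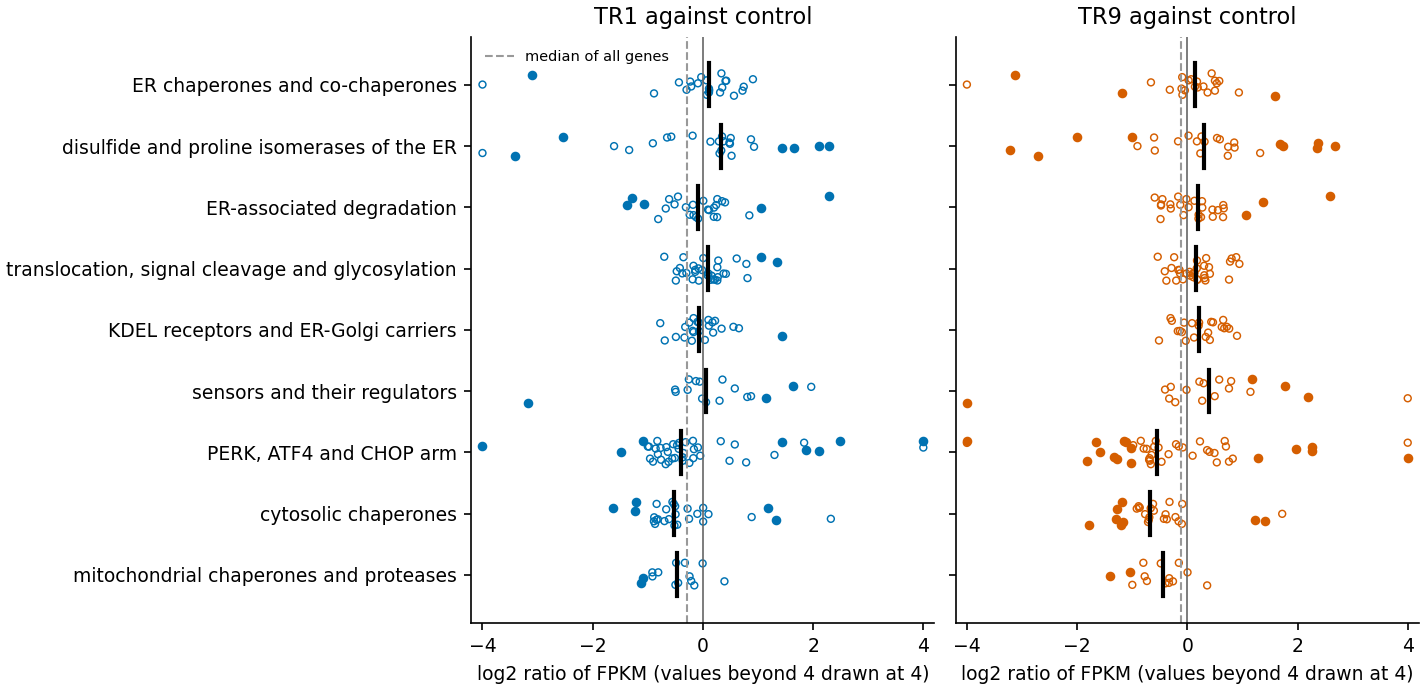
Log2 ratio of FPKM (x axis, values beyond 4 drawn at 4) of every listed gene in 9 lists for TR1 (left) and TR9 (right) against control. Each circle is a gene, filled where it passed the thresholds, black bars are list medians and the dashed line is the median of all genes (−0.29 and −0.12). The medians of the 6 ER lists lay between −0.09 and 0.40 (members included, and all above 0 with TMM scaling). Those of the PERK, cytosolic and mitochondrial lists lay between −0.68 and −0.40 (between −0.57 and −0.15 with TMM scaling).

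Beside Atf4 and Ddit3, 42 genes of the PERK, ATF4 and CHOP arm had median log2 ratios of −0.44 and −0.59 against control. Over all genes the medians were −0.29 and −0.12. In TR1, 5 rose and 3 fell, and in TR9, 5 rose and 10 fell. Of all genes, 8.09% rose and 13% fell in TR1, and 9.37% and 10.8% in TR9. With TMM scaling and all 44 genes, 7 rose and 2 fell in TR1, and 5 rose and 8 fell in TR9. The medians were then −0.15 and −0.44, beside −0.04 and −0.01 over all genes. With edgeR 4 rose and 2 fell in TR9, so the balance turned there. The genes that rose in both were Atf5, Cebpb, Stc2 and Jdp2. Stc2, a secreted glycoprotein, had 0, 126 and 50 expected counts, so that TR1 was at least 41.4-fold higher and TR9 at least 17.8-fold. Vldlr, a lipoprotein receptor, had 39, 2 and 1 counts and fell in both, but adding 1 FPKM to each value gave −0.82 and −0.85, not called. Cebpb, a myeloid transcription factor, had 44, 251 and 198 counts and log2 ratios of 2.49 (2.02 to 2.98) and 2.27 (1.79 to 2.77). The 10 genes that fell in TR9 were Eif2ak4, Asns, Vldlr, Slc7a5, Psat1, Shmt2, Mthfd2, Aldh18a1, Gars and Yars. Asns, asparagine synthetase, with 701, 367 and 185 counts, was at −0.96 (−1.15 to −0.77) in TR1, under the threshold, and fell in TR9 at −1.83 (−2.07 to −1.59). Psat1 and Mthfd2, of serine and one-carbon metabolism, fell in TR9 by 1.14 and 1.59 on the log2 scale. Phgdh, also of serine synthesis, and the cystine transporter Slc7a11 were both at −0.68 in TR9, under the threshold. Trib3, Chac1 and Atf3, which mark a strong response of this arm, had at most 11 expected counts in any library. Trib3 had 0, 7 and 10, Chac1 had 3, 11 and 5, and Atf3 had 5, 4 and 6. None of them was called in either leukemia, but counts this low leave a rise hard to detect. Set against 3 counts in control, Trib3 was at least 2.3-fold higher in TR1 and 3.57-fold in TR9. Chac1 was at a log2 ratio of 1.84 (−0.08 to 4.32) in TR1 and 0.82 (−1.54 to 3.51) in TR9. Atf3 was at −0.35 (−2.69 to 1.86) in TR1 and 0.36 (−1.62 to 2.41) in TR9.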

How the data were processed

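RNA-seq was performed on 3 libraries, 1 per condition, each from 3 pooled mice. The submitters' processing notes name BWA, Bowtie and RSEM and the mouse build mm9. Software versions are not given in the sources used here. The authors deposited for each gene an expected count, which RSEM estimates and which was not normalized, and an FPKM scaled for length and library total, beside the abundance-weighted transcript length. Genes absent from a library's list counted as 0.

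Of 16742 NCBI Gene IDs, 16698 were matched to symbols in the RefSeq table of GRCm38.p6. Pairs of libraries were compared on rounded expected counts by an exact Poisson test conditional on their sum (scipy 1.17.1) and Benjamini-Hochberg adjustment over all genes listed in either. A differentially expressed gene (DEG) passed at an adjusted p (false discovery rate) no higher than 0.001 with a log2 ratio of FPKM of 1 or more in size, thresholds that follow the paper's methods. FPKM under 0.01 was set to 0.01. Intervals are 95% exact (Clopper-Pearson for ratios, Poisson for FPKM) and cover counting error only. Folds against 3 counts or fewer were computed against 3 counts per library.

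The alternatives were TMM and median of ratios scaling, a ratio of expected counts (values under 1 count set to 1), a pseudocount of 1 FPKM, a minimum of 10 expected counts, and the exact test of edgeR 4.0.16 (R 4.3.3) with biological variation set to a coefficient of 0.2. The tests were run first on simulated data with counting error only, which cannot check the calls against variation between mice. Promoter sequences (250 bases before to 50 after each start) came from RefSeq (GRCm38.p6) and the Xbp1 transcript from GENCODE M21 (GRCm38). Protein sequences were not analysed here. Python 3.11.15, pandas 2.3.3, numpy 2.4.6 and matplotlib 3.10.9 were used.

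The members and gene lists were chosen with earlier results of these data known. Genes were named by a rule that took the 10 members, from each list the 3 with the highest mean absolute log2 ratio where TR1 and TR9 were called alike, and the gene of each list furthest apart among those called between TR9 and TR1. The 1 library per condition leaves no spread between replicates. Every other gene named was chosen after its values were seen.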

Additional observations from a re-analysis of the deposited data

Results flagged for a closer look

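Genes of the 10 and of the 9 lists were singled out where the effect against the common control library differed between TR9 and TR1 in the direct read test of those libraries, at the thresholds given above. There was 1 library per leukemia, so the difference has no replicate check. Among the 10 genes these were Ern1, higher in TR9 by a log2 ratio of 1.42, and Dnajb9, higher by 1.03. Of the lists, Tmbim6 was higher in TR9 by 1.04, and it and Dnajb9 were under the threshold with TMM scaling. Among the isomerases and their oxidases, Ero1b was higher in TR9 by 1.19 and Ppic by 3.28. Stc2 was lower in TR9, with a log2 ratio of −1.21 (126 expected counts in TR1 and 50 in TR9), and Phgdh was at −1.0. Hspa1b was lower in TR9 at −1.42, but its counts (60.6, 154 and 52.9) were not whole, because RSEM divides reads with its near-identical copy Hspa1a, and it is uncertain. Fkbp14 was at 6.64, which rests on the floor of 0.01 FPKM. Its counts were 0 in TR1 and 14 in TR9, which is at least 5.07-fold higher in TR9.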

How the results depend on the processing

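With TMM or median of ratios scaling, 3 of the 10 genes were higher in TR1 (3 under either), against 1 as reported, and 1 was higher in TR9 than in TR1 (1 under either), against 2. With edgeR's exact test at an assumed variation of 0.2, 0 of the 10 were higher in TR1, 1 in TR9 (Xbp1) and 0 in TR9 against TR1. That test called 657 genes higher and 992 lower in TR1 against 1317 and 2120, 717 and 830 in TR9 against 1527 and 1766, and 188 and 94 in TR9 against TR1 in place of 681 and 363. The assumed variation was not measured here. Signs turned with TMM scaling for Pdia4 (0.06) and Ddit3 (0.09) in TR1, Calr (0.02) and Hspa1b (0.01) in TR9, and Hspa1a (−0.08) in TR9 against TR1. With the median of ratios they turned for Pdia4 (0.05), Ddit3 (0.07) and Hspa1a (−0.07). None of these values was called. Of 465 log2 ratios under alternatives, 421 kept their direction and their side of the threshold, 32 fell below it, 4 went past it and 8 turned sign as given. Of 324 counts per list, 48 moved by over 1.5 times. A log2 ratio near 1 can change sides with the scaling, and genes with few counts, such as Ddit3, have wide intervals. No paired analysis was possible because each condition has 1 library.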

Other observations

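Chaperones outside the ER were read as further lists. Their counts stand beside 8.09% higher and 13% lower of all genes in TR1, and 9.37% and 10.8% in TR9. Of 28 cytosolic chaperones, 2 rose and 3 fell in TR1 and 2 rose and 6 fell in TR9, and the median log2 ratio was −0.52 and −0.68, beside −0.29 and −0.12 over all genes. With TMM scaling 3 rose and 1 fell in TR1, so the balance turned, and 2 rose and 6 fell in TR9, with medians of −0.27 and −0.57. With edgeR 0 rose in either, and 0 fell in TR1 and 1 in TR9. Hsph1, a nucleotide exchange factor of HSP70, had 1207, 396 and 326 expected counts in the order control, TR1 and TR9 and fell by log2 ratios of −1.63 (−1.80 to −1.47) and −1.79 (−1.97 to −1.62). Fkbp4, an HSP90 co-chaperone, fell from 2392 counts to 1031 and 909, and with TMM scaling it was at −0.99 in TR1, under the threshold. Hspa1a, an inducible HSP70, had 32.4, 74.5 and 70.9 counts and log2 ratios of 1.18 and 1.23, but shares reads with Hspa1b. Of 14 mitochondrial chaperones and proteases, 0 rose and 2 fell in each leukemia, with medians of −0.47 and −0.44, while with TMM scaling 0 fell in TR1 and 1 in TR9, and with edgeR 0 fell in either. Hspd1, the mitochondrial HSP60, had 4732, 2203 and 1674 counts and log2 ratios of −1.13 and −1.40, and −0.88 in TR1 with TMM scaling.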
